A study of Mus musculus with 9 samples.

Results

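Gene expression after 8 h of light was compared directly with expression after 1 h of light in the dorsal lateral geniculate nucleus (dLGN) of the mouse, using 6 of the 9 libraries of the series. The comparison covered the 19703 genes present in the tables of both light times, joined by Entrez gene number, and 15586 of them passed a filter on low counts and were tested. All mice were wild-type C57BL/6J animals of both sexes and of postnatal day 27, kept in darkness from postnatal day 20, so that a week of dark rearing is shared by every group. The 1 h group and the 8 h group then received light for 1 h or 8 h, with 3 libraries each, and 3 mice that stayed in darkness (0 h) gave the reference levels printed beside them. The labels describe each library as an independent sample from one of 3 mice per time. The dLGN was cut out by eye from brain slices, and total RNA without ribosomal RNA was sequenced. Counts per library ran from 8.77 M to 17.7 M at 1 h and from 17.4 M to 22.6 M at 8 h, so the 8 h levels rest on more reads. Levels are given as CPM, counts scaled to the size of each library, in the order of replicates 1, 2 and 3. The contrast asks what separates the late from the early state of light re-exposure, and the 0 h libraries shared the fit without entering the contrast.

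The dLGN is the thalamic nucleus that passes signals from the retina to the visual cortex, and its retinal inputs are still being refined at this age. Neuronal activity first switches on transcription factors such as Fos, Egr1 and Npas4, whose messages rise and decay quickly, and these factors then drive later genes that differ between cell types. Glucocorticoid hormone, whose level in blood follows the time of day and rises with stress, acts through a nuclear receptor on genes such as Fkbp5, Sgk1 and Tsc22d3 in neurons and glia alike. Fn14, the product of Tnfrsf12a, is the receptor of the cytokine TWEAK and can signal through NF-kB. The labels do not state the clock time of dissection, and time of day cannot be told apart from time in light.

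Some properties of the libraries bear on the contrast. Thalamic tissue was recovered in all of them, with Slc17a6, the glutamate transporter of relay neurons, between 447 and 537 CPM in the 1 h and 8 h libraries. Xist, the RNA of the inactive X chromosome, stood at 218, 858 and 456 CPM at 8 h, and the Y-linked gene Ddx3y was at 0.0537 CPM in 8 h replicate 2 but at 38.6 and 28.5 CPM in the other 8 h libraries. Both RNAs were present in every 1 h library, with Xist at 376 to 437 CPM and Ddx3y at 25.3 to 34.9 CPM. A single mouse of either sex is not known to have both at such levels, so these values go against the label of 1 mouse per library, and whether the 3 libraries of a time are 3 separate animals, pools or mixed samples was not tested. Neurod6, a marker of cortical and hippocampal neurons, was at 13.8 CPM in replicate 1 of the 1 h group and at 3.62 CPM in replicate 1 of the 8 h group, against at most 0.430 CPM in the other 1 h and 8 h libraries. Among the libraries of darkness, which share the fit, Neurod6 was at 0.339, 18.2 and 0.728 CPM. In 0 h replicate 3, Xist was at 0.331 CPM and Ddx3y at 60.0 CPM. In tissue of mixed cells, fewer cells of a type and less RNA per cell cannot be told apart.

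More genes were higher than lower at 8 h. By edgeR's quasi-likelihood test with Benjamini-Hochberg adjustment, 94 of the 15586 tested genes passed an adjusted p of 0.05 (0.603%), of which 79 were higher at 8 h (0.507%) and 15 were lower (0.0962%). The median log2 ratio of 8 h over 1 h among the higher genes was 0.54, and they ran from 0.27 for Nhsl2 to 4.12 for Plin4, and 19 of them exceeded 1. The lower genes had a median of -0.50 and ran from -1.31 for Npas4 to -0.32 for Napepld. Over all tested genes the median was -0.01, and 48.4% lay above 0. The 3 libraries of each time did not overlap for any of the 94 genes, which was also true of 15.3% of all tested genes (8.53% higher at 8 h and 6.77% lower). Next to the threshold, Cx3cl1 (adjusted p = 0.0447), Kcna1 (0.0457) and Npas4 (0.0491) lay just inside, and Abhd15, Fjx1, D630045J12Rik, Kitl and Them4 (all 0.0501) just outside. DESeq2 called 143 genes higher and 56 lower, which lowered the share of higher calls from 84.0% to 71.9%. The counts depended on single libraries: without replicate 1 or 3 of the 1 h group, 16 and 26 genes were called higher and 4 and 5 lower, and without replicate 1, 2 or 3 of the 8 h group, 31, 20 and 37 were called higher and 7, 6 and 8 lower. The lower calls also moved to 9, 23 and 9 without replicate 1, 2 or 3 of the 0 h group and to 26 without 1 h replicate 2. Called in each of the 9 fits that left out a library, and in every other alternative that gave them an adjusted p, were 14 of the higher genes (Plin4, Cdkn1a, Hif3a, Zbtb16, Cftr, Fkbp5, Fam83d, Car7, Net1, Mertk, Sgk1, Tunar, Arrdc2 and Fam19a4) and 3 of the lower genes (Adamts1, Mmp14 and Zfp804a). Of the 94 genes, DESeq2 gave no adjusted p to Plin4, Cftr, Map3k6, Cldn1 and Tekt4, all of low level, and limma-voom did not call Npas4, Tekt4 and Phyhd1.

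**Figure D1:**
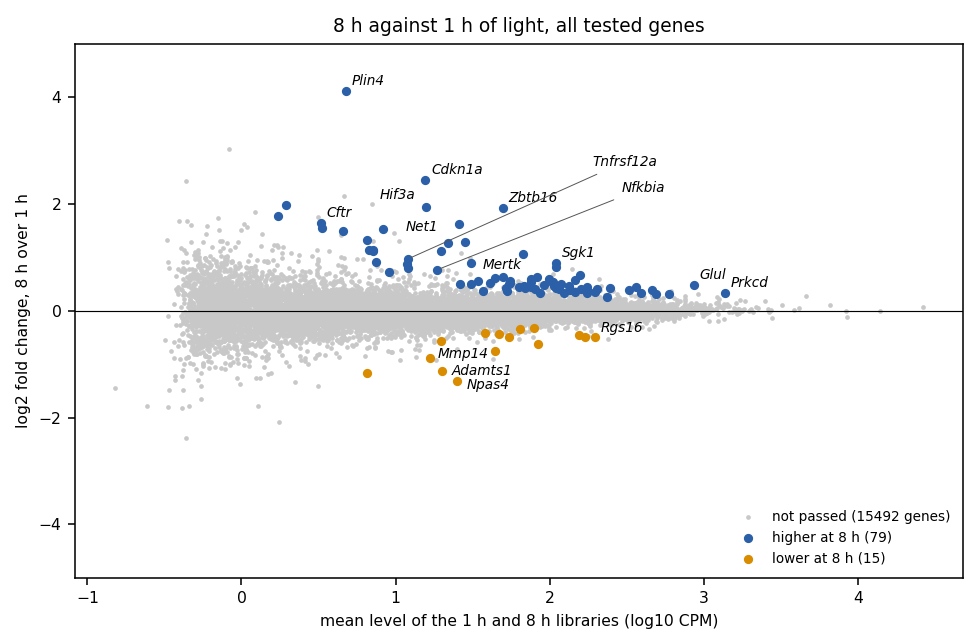
Log2 fold change of 8 h over 1 h (vertical axis) against the mean level of the 1 h and 8 h libraries (horizontal axis, log10 CPM), with 1 point per tested gene. Blue points are the 79 genes called higher at 8 h, orange points the 15 called lower and grey points the rest, and Plin4 stands farthest from 0 at 4.12.

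Among the lists examined, that of genes known to be induced by glucocorticoids held the most calls. Of 28 listed genes, which include both corticosteroid receptors, 27 passed the filter on low counts (Lcn2 did not) and 15 were higher at 8 h, against 0.507% of all tested genes. None was lower, and 12 did not pass. DESeq2 called 15 members and limma-voom 16. The median log2 ratio of the 27 was 0.68, against -0.01 over all tested genes, and 21 of them lay above 0. The summed level of the list was 1834, 1967 and 1891 CPM at 1 h and 2629, 2857 and 2628 CPM at 8 h. The genes of this list were known to be high in these libraries when it was drawn up, so its count is not independent evidence of their direction.

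Plin4, a perilipin that coats lipid droplets, was measured at 0.453, 0.530 and 0.513 CPM at 1 h and at 5.75, 13.7 and 7.50 CPM at 8 h. Its 1 h values all lay below the 0 h values of 0.679, 1.02 and 1.06 CPM, and its 8 h values all lay above them. For replicate 1 of darkness and of the 1 h group, the floor of detection (3 counts) stood at 0.524 and 0.342 CPM. Their Plin4 values lay little above it, so the order of 1 h below darkness rests on few counts. The 8 h to 1 h difference was 17.4-fold, a log2 ratio of 4.12 ± 0.37 (SE, adjusted p = 0.000434, edgeR). The size of this ratio also depends on the low 1 h counts. Cdkn1a, the cell cycle inhibitor p21, stood at 5.10, 3.82 and 5.58 CPM at 1 h and at 22.3, 34.4 and 22.3 CPM at 8 h, a 5.45-fold difference (log2 2.45 ± 0.22 SE, adjusted p = 0.000434, edgeR). Its 1 h values lay in the range of darkness, which was 3.22 to 5.82 CPM, and 7.68% of its exonic bases overlap an annotated transcript on the other strand. Hif3a, a member of the hypoxia-inducible factor family with forms that restrain its relatives, was at 4.64, 8.88 and 5.41 CPM at 1 h and at 22.2, 23.9 and 29.4 CPM at 8 h (log2 1.95 ± 0.19 SE, adjusted p = 0.00058, edgeR). Zbtb16, a zinc finger repressor, was at 22.0, 24.1 and 16.2 CPM at 1 h and at 76.2, 99.7 and 59.3 CPM at 8 h (log2 1.92 ± 0.19 SE, adjusted p = 0.000568, edgeR). For Hif3a and Zbtb16 as well, the groups were far apart, with 0 h ranges of 4.58 to 5.26 CPM and 17.5 to 23.1 CPM. The 1 h level of Zbtb16 was close to that in darkness. For Hif3a, 1 h replicates 2 and 3, at 8.88 and 5.41 CPM, lay above every value in darkness.

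Fkbp5, a co-chaperone that holds the glucocorticoid receptor in a state of low affinity, was at 11.7, 13.5 and 12.3 CPM at 1 h and at 29.7, 54.3 and 33.0 CPM at 8 h. The highest of its 8 h values came from replicate 2, as for Plin4, Cdkn1a and Zbtb16, and the lowest still lay above every 1 h value. Its log2 ratio was 1.63 ± 0.19 (SE, adjusted p = 0.00271, edgeR). Sgk1, a kinase that regulates ion channels and transporters, was at 77.0, 80.3 and 71.1 CPM at 1 h and at 139, 127 and 162 CPM at 8 h (log2 0.90 ± 0.10 SE, adjusted p = 0.00104). Mertk, a receptor through which astrocytes and microglia engulf debris and synapses, was at 22.5, 23.2 and 19.3 CPM at 1 h and at 38.9, 42.5 and 39.2 CPM at 8 h (log2 0.89 ± 0.09 SE, adjusted p = 0.00065). The 8 h values of Mertk were close together, with a standard deviation of 1.98 CPM around a mean of 40.2 CPM. Map3k6, a stress-activated kinase of low level here, was at 1.70, 2.18 and 1.20 CPM at 1 h and at 4.53, 5.32 and 5.03 CPM at 8 h (log2 1.55 ± 0.23 SE, adjusted p = 0.0131). Its call was lost without 1 h replicate 1 or 8 h replicate 2. Sult1a1, a sulfotransferase of phenolic compounds, rose by a log2 ratio of 1.49 ± 0.25 (SE, adjusted p = 0.0193) and lost its call without replicate 1 or 2 of the 1 h group and without replicate 2 or 3 of the 8 h group.

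The other called members of the glucocorticoid list are named here after their values were seen. Arrdc2, an alpha-arrestin, went from 12.5, 15.2 and 9.69 CPM at 1 h to 25.1, 24.5 and 31.8 CPM at 8 h (log2 1.12 ± 0.16 SE, adjusted p = 0.0079, edgeR). Tsc22d3, which encodes the anti-inflammatory protein GILZ, went from 113, 128 and 123 CPM to 189, 213 and 183 CPM (log2 0.68 ± 0.11 SE, adjusted p = 0.0156). Glul, the glutamine synthetase of astrocytes, went from 703, 680 and 763 CPM to 947, 1102 and 952 CPM (log2 0.48 ± 0.08 SE, adjusted p = 0.0188). Each of these genes had its lowest 8 h value above its highest 1 h value, as did every gene called higher. Klf9, a transcription factor of the KLF family, had a log2 ratio of 0.42 ± 0.07 (SE, adjusted p = 0.0188). Mt2, a metal-binding metallothionein, had 1.07 ± 0.20 (SE, adjusted p = 0.0405), and 73.5% of its exonic bases overlap an annotated transcript, Gm45774, on the other strand. Leaving out one 1 h or 8 h library at a time, Arrdc2 was called in 6 of 6 fits, Tsc22d3 and Glul in 3, and Klf9 and Mt2 in 1. Members that did not pass with edgeR included Klf15, a further KLF factor (log2 0.68, adjusted p = 0.0519), Mt1 (0.70, 0.111), Ddit4 (0.48, 0.135) and Per1 (0.30, 0.429). Others lay nearer to 0 or below it, with log2 ratios of 0.10 for Sesn1, -0.05 for Errfi1, -0.09 for Pdk4, -0.18 for Cdkn1c and -0.22 for Lyve1. Klf15 was called by DESeq2 and limma-voom, and Ddit4 by DESeq2. The receptors themselves had log2 ratios of -0.20 for the glucocorticoid receptor gene Nr3c1 (adjusted p = 0.515) and -0.13 for the mineralocorticoid receptor gene Nr3c2 (adjusted p = 0.896).

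The DNA word to which the glucocorticoid receptor binds as a dimer was searched, as GNACA and TGTNC with 3 bases of any kind between them, on both strands, in the 250 bases before the annotated start of each gene (RefSeq, GRCm38.p6). It was found in 40 of the 11880 tested genes with a promoter in that table (0.337%) and in 2 of 67 such genes called higher, Map3k6 and Sgk1. None of the 12 lower genes with a promoter held it. The pair is printed to show the word in its context, with the word in capitals. For Sgk1 the start is 1 of 6 annotated starts. The word overlapped none of the other 5 words searched, and its presence is a description of the sequence and not of binding. Among the other words, TGANTCA of AP-1 was in 5.33% of tested promoters and in 5 of 67 of higher genes, and the E-box CACGTG in 9.55% and in 8 of 67.
Sgk1 (chr10:21993640-21993889, plus strand): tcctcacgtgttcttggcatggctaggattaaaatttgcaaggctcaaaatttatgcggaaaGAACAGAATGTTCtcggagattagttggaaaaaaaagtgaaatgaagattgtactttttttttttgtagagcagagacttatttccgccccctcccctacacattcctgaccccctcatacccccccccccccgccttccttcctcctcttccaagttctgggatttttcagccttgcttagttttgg
Map3k6 (chr4:133240568-133240817, plus strand): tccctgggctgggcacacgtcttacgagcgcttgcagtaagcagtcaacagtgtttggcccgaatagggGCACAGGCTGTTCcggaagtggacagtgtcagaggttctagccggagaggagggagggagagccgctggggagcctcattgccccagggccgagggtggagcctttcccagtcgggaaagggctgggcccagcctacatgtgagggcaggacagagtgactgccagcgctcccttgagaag

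**Figure D2:**
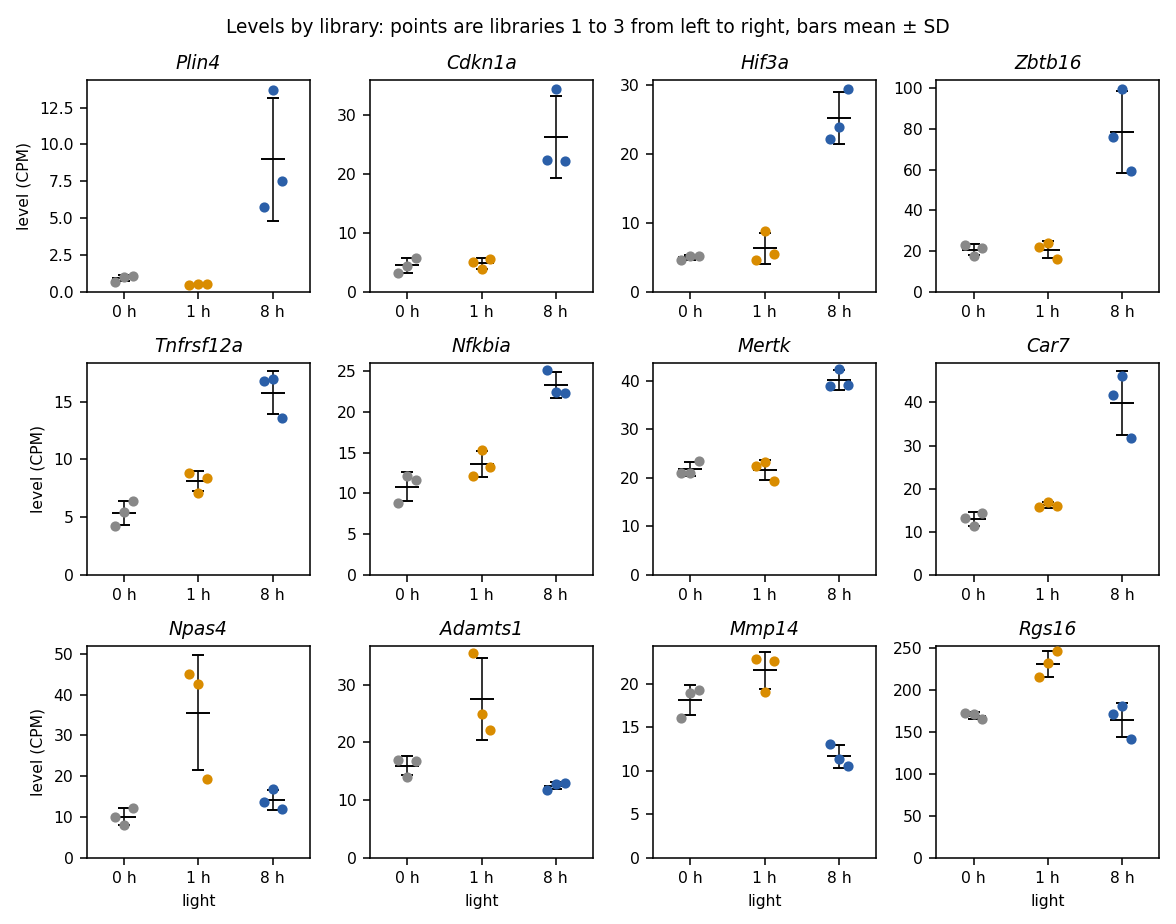
Level of 12 genes in each library (vertical axis, CPM, each panel with its own scale from 0) after 0 h, 1 h and 8 h of light (horizontal axis), with points for replicates 1 to 3 from left to right and bars for the mean ± SD (n = 3). In the upper rows the 8 h points lie above all 1 h points, as for Cdkn1a with 22.3 to 34.4 against 3.82 to 5.58 CPM, and in the lowest row they lie below them.

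The receptor gene of the series, Tnfrsf12a, was higher at 8 h than at 1 h, and so was an inhibitor of NF-kB, while the ligand, the adaptors and the NF-kB subunits did not pass. Tnfrsf12a, which encodes Fn14, was at 8.83, 7.12 and 8.38 CPM at 1 h and at 16.8, 17.0 and 13.6 CPM at 8 h. Its 1 h values lay between those in darkness (4.24, 5.47 and 6.35 CPM) and those at 8 h, without overlap in either direction. The 8 h to 1 h ratio was 1.96, a log2 ratio of 0.97 ± 0.14 (SE, adjusted p = 0.0131, edgeR). The call was lost without 8 h replicate 1 or 8 h replicate 2, where the log2 ratio was 0.92 and 0.91. Nfkbia, which encodes the inhibitor IkB-alpha and is itself a target of NF-kB and of glucocorticoids, was at 12.1, 15.4 and 13.3 CPM at 1 h and at 25.1, 22.4 and 22.3 CPM at 8 h (log2 0.76 ± 0.12 SE, adjusted p = 0.0155). Its groups did not overlap either, as in every called gene. The call of Nfkbia was lost without replicate 1 or 3 of the 1 h group and without replicate 1 or 2 of the 8 h group. Tnfsf12, which encodes the ligand TWEAK, was at 2.49, 2.77 and 2.11 CPM at 1 h and at 2.31, 2.26 and 2.35 CPM at 8 h (log2 -0.09 ± 0.20 SE, adjusted p = 0.927). Of its exonic bases, 48.3% are shared with the annotated readthrough transcript Tnfsfm13 on its strand, so its count is uncertain. Tnfrsf12a and Nfkbia were the 2 genes higher of 26 tested in the list of Fn14, its ligand, adaptors and the NF-kB pathway, against 0.507% of all tested genes, none was lower, and 24 did not pass. The median of the list was -0.05. Among the members that did not pass, the subunits Nfkb1, Rela and Relb had log2 ratios of -0.04, 0.02 and 0.60, and the adaptors Traf2, Traf3 and Traf6 had -0.14, -0.05 and -0.12.

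The promoters of both genes are printed with the words found in them. In that of Tnfrsf12a the capitals mark 2 overlapping copies of GCGNGGGCG, the word of the EGR factors, which 1218 of 11880 tested promoters held (10.3%) and 11 of 67 promoters of higher genes. In that of Nfkbia they mark the word of NF-kB, read as GGGNN followed directly by TTNCC, on the minus strand of the gene, which 648 tested promoters held (5.45%) and 5 of 67 promoters of higher genes. Both strands were searched, and neither match overlapped a word of another kind.
Tnfrsf12a (chr17:23677450-23677699, minus strand): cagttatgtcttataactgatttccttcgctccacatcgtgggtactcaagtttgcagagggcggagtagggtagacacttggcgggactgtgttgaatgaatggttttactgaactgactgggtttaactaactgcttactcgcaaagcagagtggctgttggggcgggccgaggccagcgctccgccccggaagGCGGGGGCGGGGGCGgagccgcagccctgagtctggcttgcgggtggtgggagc
Nfkbia (chr12:55492648-55492897, minus strand): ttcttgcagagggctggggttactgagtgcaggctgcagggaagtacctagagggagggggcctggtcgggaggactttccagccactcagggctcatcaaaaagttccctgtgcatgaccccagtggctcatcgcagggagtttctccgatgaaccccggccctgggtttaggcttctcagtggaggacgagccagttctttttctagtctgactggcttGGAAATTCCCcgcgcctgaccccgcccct

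On the side of the genes lower at 8 h stood Npas4, the neuronal activity-dependent transcription factor. It was at 45.0, 42.5 and 19.3 CPM at 1 h and at 13.8, 16.9 and 12.02 CPM at 8 h, with 10.01, 7.94 and 12.2 CPM in darkness. The lowest 1 h library, replicate 3, lay close to the highest 8 h library, replicate 2. The level at 1 h was 2.48 times that at 8 h, a log2 ratio of -1.31 ± 0.26 (SE, adjusted p = 0.0491, edgeR). This call lay at the threshold: the adjusted p was 0.0163 with DESeq2, 0.105 with limma-voom, 0.0602 with the 6 libraries alone, 0.0598 with Xist as a covariate and up to 0.197 with a library left out, and it held in 1 of 6 fits without one 1 h or 8 h library (that without 1 h replicate 3). Npas4 was the only gene to pass of 24 tested transcription factors of the rapid activity response (0.0962% of all tested genes were lower), none was higher, and 23 did not pass. Of the 24, 8 had an unadjusted p under 0.05, among them Npas4 and, on the higher side, Csrnp1 (log2 0.44). At that level 4.81% of all tested genes were higher and 4.09% lower. The median log2 ratio of these 24 was -0.31, and 4 lay above 0. Fos stood at 66.8, 64.7 and 34.9 CPM at 1 h and at 31.4, 31.4 and 25.9 CPM at 8 h (log2 -0.90 ± 0.31 SE, adjusted p = 0.337). Fosb, a close relative of Fos, stood at 9.17, 10.9 and 4.10 CPM at 1 h and at 5.07, 6.604 and 3.03 CPM at 8 h (log2 -0.70 ± 0.33 SE, adjusted p = 0.576). For both, as for Npas4, 1 h replicate 3 was the lowest of the 1 h libraries. Egr1, a zinc finger factor, stood at 124, 169 and 69.5 CPM at 1 h and at 109, 94.5 and 90.2 CPM at 8 h, with overlapping groups (log2 -0.30 ± 0.24 SE, adjusted p = 0.769). Its direction was reversed without 1 h replicate 2. Nr4a1, an orphan nuclear receptor, had a log2 ratio of -0.24 (adjusted p = 0.741) and Fosl2, a partner of JUN proteins, of -0.35 (adjusted p = 0.419). The 8 h values of Fos, Fosb, Egr1, Nr4a1 and Fosl2 all lay above every value in darkness, whose highest were 21.6, 0.860, 43.9, 21.2 and 6.15 CPM.

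The promoter of Npas4 held TGACG, a core of the CREB binding word, on both strands, as marked by capitals; the word was present in 3465 of 11880 tested promoters (29.2%) and in 4 of 12 promoters of lower genes, those of Npas4, Adamts1, Coro1a and Ndst3.
Npas4 (chr19:4989972-4990221, minus strand): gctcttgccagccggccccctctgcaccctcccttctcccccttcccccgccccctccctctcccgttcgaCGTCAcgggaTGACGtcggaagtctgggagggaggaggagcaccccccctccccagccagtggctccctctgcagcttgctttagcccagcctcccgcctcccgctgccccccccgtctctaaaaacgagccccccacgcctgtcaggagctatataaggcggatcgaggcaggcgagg

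Of 17 tested rapid activity-induced genes that do not encode transcription factors, none passed in either direction with edgeR, DESeq2 or limma-voom, and 0 had an unadjusted p under 0.05. At that level 4.81% of all tested genes were higher and 4.09% lower. The median of the 17 was -0.04. Arc, which acts at the synapse, was at 33.4, 24.2 and 17.7 CPM at 1 h and at 30.2, 19.9 and 20.7 CPM at 8 h, a log2 ratio of -0.06 ± 0.22 (SE, adjusted p = 0.958) whose sign varied with the library left out. Trib1, a pseudokinase, was at 34.7, 37.4 and 26.6 CPM at 1 h and at 39.2, 36.6 and 34.8 CPM at 8 h, against a mean of 17.1 CPM in darkness (log2 0.17 ± 0.11 SE, adjusted p = 0.741). The smallest unadjusted p of this list belonged to Arl4d, a small GTPase (log2 0.73, adjusted p = 0.564), which was at 2.81, 1.93 and 5.66 CPM at 8 h. Without 8 h replicate 3 its log2 ratio was 0.20. The negative feedback regulators of ERK signalling had no call among 15 tested genes with any of the 3 tools (2 with an unadjusted p under 0.05) and a median of -0.13, with Spry1 at -0.36 (adjusted p = 0.301). CREB, its coactivators and the SIK kinases had no call among 13 either (4 with an unadjusted p under 0.05), and Crem, which makes an inducible repressor, was at -0.37 (adjusted p = 0.391).

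Among 24 tested delayed activity-induced effectors, the secreted peptide precursor Vgf was higher at 8 h, the secreted protease Adamts1 was lower, and 22 did not pass, while 0.507% of all tested genes were higher and 0.0962% lower. The median was -0.03. Vgf was at 204, 214 and 212 CPM at 1 h and at 291, 284 and 281 CPM at 8 h, with 173, 180 and 212 CPM in darkness. The replicates of Vgf were close together at 1 h and at 8 h, and the difference was 1.35-fold (log2 0.44 ± 0.07 SE, adjusted p = 0.0188, edgeR). Its call was lost when any of 1 h replicate 1, 1 h replicate 3 and the 3 replicates of 8 h was left out, with log2 ratios between 0.42 and 0.45. Bdnf, a neurotrophin, had a log2 ratio of -0.36 (adjusted p = 0.881), and Igf1, a growth factor, of -0.51 (adjusted p = 0.337). In the list of neuropeptides and secreted signals, Vgf was the 1 gene to pass of 21 tested (0.507% of all tested genes were higher), and the median was 0.21.

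Adamts1 and Mmp14, both proteases that act on the matrix outside the cell, were lower at 8 h. Adamts1, which cuts large proteoglycans of the matrix, was at 35.4, 24.9 and 22.1 CPM at 1 h and at 11.8, 12.8 and 12.9 CPM at 8 h, with 17.0, 14.1 and 16.8 CPM in darkness. All 8 h values lay below all values in darkness, and all 1 h values lay above them. The level at 1 h was 2.18 times that at 8 h (log2 -1.12 ± 0.16 SE, adjusted p = 0.0079, edgeR). Mmp14, a membrane-anchored metalloprotease that activates other proteases, was at 22.9, 19.1 and 22.7 CPM at 1 h and at 13.1, 11.4 and 10.5 CPM at 8 h (log2 -0.88 ± 0.12 SE, adjusted p = 0.00702). Its 8 h values also lay below those in darkness, which ran from 16.1 to 19.3 CPM. Adamts1 and Mmp14 were the 2 lower genes of 26 tested in the list of extracellular matrix and matrix proteases, none was higher, 24 did not pass, and the median was 0.00, while 0.0962% of all tested genes were lower. Adamts15, a related protease that is not in that list, was at 175, 170 and 187 CPM at 1 h and at 124, 143 and 123 CPM at 8 h, close to the 128 to 142 CPM of darkness (log2 -0.46 ± 0.07 SE, adjusted p = 0.0141). Its call was lost without replicate 1 or 3 of either group. Adamts9 (log2 -0.64, adjusted p = 0.109) and the matrix glycoprotein Tnc (-0.48, 0.181) did not pass with edgeR and were called by DESeq2.

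The other lower genes had log2 ratios from -1.16 to -0.32. Zfp804a, a zinc finger protein of neurons, was at 191, 192 and 209 CPM at 1 h and at 145, 132 and 145 CPM at 8 h (log2 -0.49 ± 0.06 SE, adjusted p = 0.00345, edgeR). Its 1 h values were close to the 183 to 188 CPM of darkness and the 8 h values lay below both. Rgs16, which shortens G protein signals, showed another order: 215, 232 and 246 CPM at 1 h stood above 171, 180 and 141 CPM at 8 h and above 172, 171 and 165 CPM in darkness (log2 -0.50 ± 0.08 SE, adjusted p = 0.0188). Its call was lost without 1 h replicate 3 or 8 h replicate 1, and 10.1% of its exonic bases overlap a transcript on the other strand. Rab38, a small GTPase of membrane traffic, was at 7.93, 8.30 and 10.5 CPM at 1 h and at 3.71, 2.95 and 5.44 CPM at 8 h (log2 -1.16 ± 0.20 SE, adjusted p = 0.0257). Coro1a, an actin-binding coronin, had -0.48 ± 0.08 (SE, adjusted p = 0.0155). Slc7a11, the exchanger of cystine for glutamate, had -0.62 ± 0.12 (SE, adjusted p = 0.0422). B3galt2, a galactosyltransferase, had -0.76 ± 0.14 (SE, adjusted p = 0.0294), and 679 of its exonic bases overlap Cdc73 on the other strand. The last 5 of the 15 were Ndst3, which modifies heparan sulfate (log2 -0.56), Itga6, a laminin receptor subunit (-0.44), Zfp770, a zinc finger protein (-0.42), Sox2, a stem cell and glial transcription factor (-0.33), and Napepld, which makes N-acylethanolamine lipids (-0.32). Of these 5, none was called in more than 1 of the 6 fits without one 1 h or 8 h library. In the same 6 fits Coro1a was called in 3, Rab38 in 2, and Slc7a11 and B3galt2 in 1 each.

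**Figure D3:**
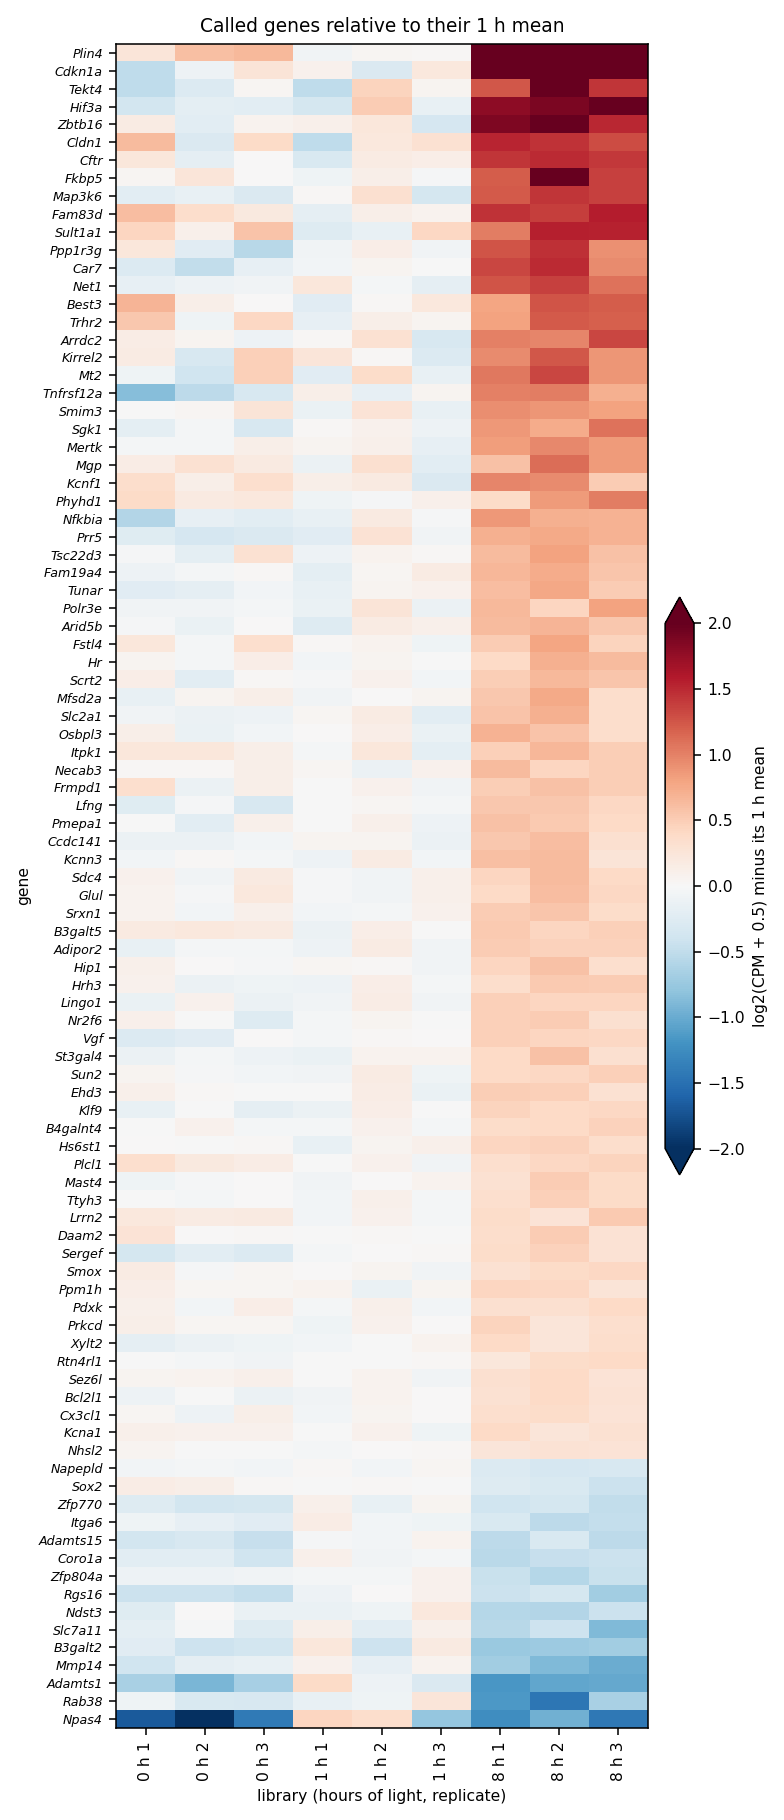
Difference of log2(CPM + 0.5) from the mean of the 1 h libraries (colour) for the 94 called genes (rows, by log2 ratio) in the 9 libraries (columns), with colours ending at -2 and 2. The rows of Plin4 and Cdkn1a reach the upper end of the scale at 8 h, while Npas4 and Adamts1 are low both in darkness and at 8 h.

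Higher genes outside the glucocorticoid list are described next, beginning with those of large fold change. Car7, a carbonic anhydrase of neurons that interconverts carbon dioxide and bicarbonate, was at 15.6, 16.8 and 16.1 CPM at 1 h and at 41.8, 46.2 and 31.8 CPM at 8 h (log2 1.30 ± 0.13 SE, adjusted p = 0.00065, edgeR). The 1 h values had a standard deviation of 0.606 CPM, and the lowest 8 h value stood well above them. Cftr, a chloride and bicarbonate channel, was at 1.13, 1.77 and 1.71 CPM at 1 h and at 4.94, 5.15 and 4.86 CPM at 8 h (log2 1.65 ± 0.21 SE, adjusted p = 0.0051). Best3, of the bestrophin family of anion channels, rose by 1.15 ± 0.20 (log2 ± SE, adjusted p = 0.0257). Net1, an activator of the GTPase RhoA, was at 15.1, 12.4 and 11.2 CPM at 1 h and at 31.4, 33.8 and 27.7 CPM at 8 h (log2 1.28 ± 0.11 SE, adjusted p = 0.000434). Fam83d, known from the mitotic spindle, was at 3.62, 4.53 and 4.39 CPM at 1 h and at 12.1, 11.6 and 13.3 CPM at 8 h (log2 1.54 ± 0.14 SE, adjusted p = 0.000438). Groups did not overlap for any of these genes, as for every called gene and for 8.53% of all tested genes in that direction. Car7, Cftr, Net1 and Fam83d were called in each fit without one library. Cldn1, a tight junction protein, was low at both times, with 0.340, 0.883 and 0.969 CPM at 1 h and 2.94, 2.74 and 2.46 CPM at 8 h (log2 1.78 ± 0.35 SE, adjusted p = 0.0422). It was called in none of the 6 fits without one 1 h or 8 h library, and Best3 in 1 of them.

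Glycogen, lipid droplet and fuel-switch genes had 3 higher members of 22 tested, against 0.507% of all tested genes, none lower and a median of 0.10. Besides Plin4, these were Ppp1r3g, which directs a phosphatase to glycogen, and Slc2a1, the glucose transporter GLUT1 of the blood-brain barrier and astrocytes. Ppp1r3g was at 3.51, 4.12 and 3.53 CPM at 1 h and at 9.56, 11.1 and 7.44 CPM at 8 h (log2 1.32 ± 0.20 SE, adjusted p = 0.0141, edgeR). Slc2a1 was at 85.4, 93.0 and 71.8 CPM at 1 h and at 123, 137 and 106 CPM at 8 h (log2 0.54 ± 0.10 SE, adjusted p = 0.0351). In both genes replicate 3 was the lowest of the 8 h libraries, still above every 1 h value, and each was called in 2 of the 6 fits without one 1 h or 8 h library. The other tested perilipins did not pass, with Plin2 at -0.47 and Plin3 at 0.12 on the log2 scale.

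Of 33 tested potassium and HCN channel genes, 3 were higher at 8 h, against 0.507% of all tested genes, none was lower, and the median was 0.04. Kcnf1, a silent subunit that modifies other channels, was at 85.6, 89.7 and 64.3 CPM at 1 h and at 157, 152 and 113 CPM at 8 h (log2 0.82 ± 0.14 SE, adjusted p = 0.0213, edgeR). Kcnn3, the calcium-activated channel SK3, was at 91.1, 110 and 94.2 CPM at 1 h and at 149, 152 and 118 CPM at 8 h (log2 0.50 ± 0.10 SE, adjusted p = 0.0409). Kcna1, the delayed rectifier Kv1.1, was at 433, 464 and 411 CPM at 1 h and at 575, 514 and 536 CPM at 8 h (log2 0.31 ± 0.06 SE, adjusted p = 0.0457). In each of the 3 the lowest 8 h value lay above the highest 1 h value, as in every gene called higher. For Kcnf1 and Kcnn3 that lowest value was replicate 3. Kcnf1 and Kcnn3 were called in 2 of the 6 fits without one 1 h or 8 h library and Kcna1 in 1. Hcn2 and Hcn4, channels of rhythmic firing, had log2 ratios of 0.05 and 0.04 and did not pass.

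Among 9 tested nuclear non-coding RNAs, Tunar was higher at 8 h, against 0.507% of all tested genes, and the others did not pass, with a median of 0.03. Tunar, a conserved transcript of neural cells, was at 58.2, 67.4 and 69.0 CPM at 1 h and at 99.5, 111 and 92.6 CPM at 8 h (log2 0.63 ± 0.08 SE, adjusted p = 0.00702, edgeR). Fam19a4, a secreted chemokine-like protein named after its values were seen, was at 33.6, 39.6 and 43.1 CPM at 1 h and at 61.3, 64.7 and 57.2 CPM at 8 h (log2 0.64 ± 0.09 SE, adjusted p = 0.00782). Both were called in each fit without one library. Also chosen after their values were seen are 3 membrane proteins that were higher at 8 h. Lingo1, a membrane protein that restrains axon growth and myelination, had a log2 ratio of 0.44 (adjusted p = 0.0221), Hrh3, the presynaptic histamine receptor, of 0.45 (adjusted p = 0.0214), and Trhr2, a receptor of thyrotropin-releasing hormone, of 1.14 (adjusted p = 0.0191). None of these 3 was called in every fit without one library, and 11.1% of the exonic bases of Hrh3 overlap a transcript on the other strand.

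**Figure D4:**
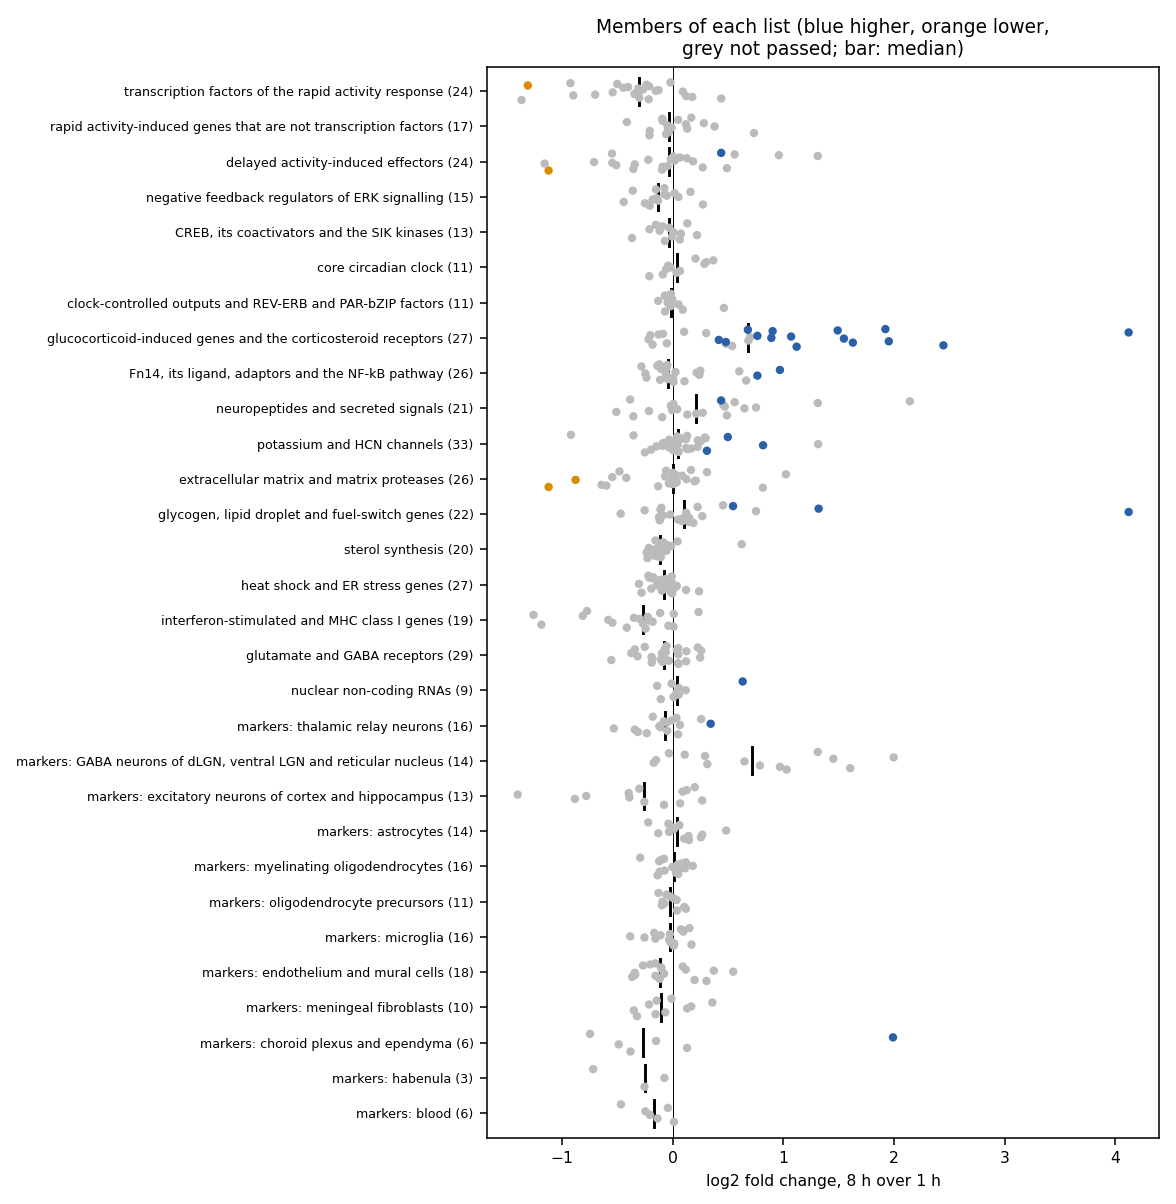
Log2 fold change of 8 h over 1 h (horizontal axis) for the tested members of each gene list (rows, with the number tested), with blue for higher, orange for lower, grey for members that did not pass and a black bar for the median. Most medians lie near 0, while those of the glucocorticoid list (0.68) and of the GABA neuron markers (0.72) lie farthest to the right, the latter with no member called.

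Several gene groups had no call by edgeR in the contrast. Of 11 core circadian clock genes none passed with edgeR, DESeq2 or limma-voom (3 had an unadjusted p under 0.05), and the median was 0.03. Per1, a clock gene that also answers to activity and glucocorticoids, was at 115, 161 and 111 CPM at 1 h and at 164, 159 and 156 CPM at 8 h (log2 0.30 ± 0.12 SE, adjusted p = 0.429), and the high 1 h library was replicate 2. Without that library its log2 ratio was 0.50 and it was called higher (adjusted p = 0.0106, edgeR), and without 1 h replicate 3 the log2 ratio was 0.20. Its partner Per2 had a log2 ratio of 0.37 (adjusted p = 0.522). Nr1d1, a clock repressor, had -0.13 (adjusted p = 0.758), and none of 11 clock outputs passed with the same tools (0 at an unadjusted p under 0.05). Of 20 sterol synthesis genes none passed with the 3 tools (3 at an unadjusted p under 0.05), while 18 lay below 0 (51.6% of all tested genes did), with a median of -0.12 and Hmgcs1, an early enzyme of the pathway, at -0.24 (adjusted p = 0.367). Of 27 heat shock and endoplasmic reticulum stress genes 23 lay below 0, with none called by the 3 tools (2 at an unadjusted p under 0.05) and a median of -0.08. Interferon-stimulated and MHC class I genes had a median of -0.27 over 19 genes and no call by the 3 tools (5 at an unadjusted p under 0.05), with Psmb8 of the immunoproteasome at -0.81 (adjusted p = 0.241). For Rsad2 and Ifit1, both antiviral genes, 1 h replicate 3 alone was high, with 3.36 and 3.70 CPM against at most 0.941 and 1.25 CPM in the other 1 h libraries. Glutamate and GABA receptors had no call among 29 tested genes by edgeR or limma-voom (6 at an unadjusted p under 0.05) and a median of -0.08. DESeq2 called 2 of them, among them the kainate receptor subunit Grik1 as lower (log2 -0.38, adjusted p = 0.102 by edgeR). At an unadjusted p of 0.05, 4.81% of all tested genes were higher and 4.09% lower.

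Markers of cell types were compared in the same way. Of 16 thalamic relay neuron markers, Prkcd, a protein kinase C of relay neurons, was higher, at 1137, 1287 and 1212 CPM at 1 h and 1651, 1438 and 1532 CPM at 8 h (log2 0.34 ± 0.07 SE, adjusted p = 0.0409, edgeR). The median of the 16 was -0.07, and Prkcd was called in 1 of the 6 fits without one 1 h or 8 h library. Kitl, which lay just outside the threshold, had a log2 ratio of -0.53 (adjusted p = 0.0501), and DESeq2 called 4 of these markers, among them Prkcd, Kitl and Synpo2. No marker of astrocytes (14 tested), myelinating oligodendrocytes (16), oligodendrocyte precursors (11), microglia (16), endothelium and mural cells (18), meningeal fibroblasts (10), habenula (3), blood (6) or cortex and hippocampus (13) passed with edgeR or limma-voom. Unadjusted p under 0.05 were found for 3 astrocyte, 2 oligodendrocyte, 2 microglial and 5 endothelial or mural markers and for 0 of the other 5 lists. Among all tested genes, 4.81% were higher and 4.09% lower at that level. DESeq2 called Gjb6 and Fgfr3 of astrocytes and Ly6c1 of endothelium higher, whose log2 ratios by edgeR were 0.48, 0.27 and 0.55. In the list of choroid plexus and ependyma, Tekt4, a protein of cilia, was the 1 gene higher of 6 tested (0.507% of all tested genes were higher), with 0.340, 1.12 and 0.741 CPM at 1 h and 2.31, 4.51 and 2.69 CPM at 8 h (log2 1.99 ± 0.37 SE, adjusted p = 0.0362). The summed level of that list was 28.5 to 30.6 CPM at 1 h and 28.2 to 31.6 CPM at 8 h, and Ttr, its best known gene, had a log2 ratio of -0.75 (adjusted p = 0.647).

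Markers of GABA neurons of the dLGN, the ventral LGN and the reticular nucleus had higher summed levels at 8 h, although no single marker passed. None of 14 tested passed with edgeR, DESeq2 or limma-voom, and 11 lay above 0, with a median log2 ratio of 0.72. An unadjusted p under 0.05 was found for 5 of them, while 4.81% of all tested genes were higher and 4.09% lower at that level. The summed level of the 17 listed markers among the joined genes was 773, 854 and 686 CPM at 1 h and 1070, 909.5 and 870 CPM at 8 h. These sums did not overlap, while darkness spanned 637 to 1044 CPM. Gad1, an enzyme of GABA synthesis, was at 119, 121 and 67.1 CPM at 1 h and at 254, 154 and 119 CPM at 8 h. Six3, a factor of the ventral LGN and reticular nucleus, was at 3.06, 4.71 and 0.741 CPM at 1 h and at 16.4, 9.40 and 7.61 CPM at 8 h. In both genes 8 h replicate 1 was the highest of these 6 libraries and 1 h replicate 3 the lowest. The log2 ratios were 0.79 for Gad1 and 2.00 for Six3, but 0.31 for Gad2 and 0.29 for Slc32a1. The groups overlapped for Gad1, Gad2 and Slc32a1 and not for Six3. The 3 members below 0 were Sox14 (-0.04), Otx2 (-0.15) and Gata3 (-0.17). With the level of Gad1, Gad2 and Slc32a1 added as a covariate, an alternative chosen after the data were seen, 40 genes were higher and 9 lower, of which 34 and 7 were among the 79 and 15. Plin4, Cdkn1a, Hif3a, Zbtb16, Fkbp5, Sgk1, Mertk, Tnfrsf12a, Nfkbia, Npas4, Adamts1 and Mmp14 were called in that fit, with log2 ratios of 0.97 for Tnfrsf12a and -1.54 for Npas4, and Fos was called as well (log2 -1.32, adjusted p = 0.0124). The part of the GABA neuron markers in the genes that lost their call was not tested.

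**Figure D5:**
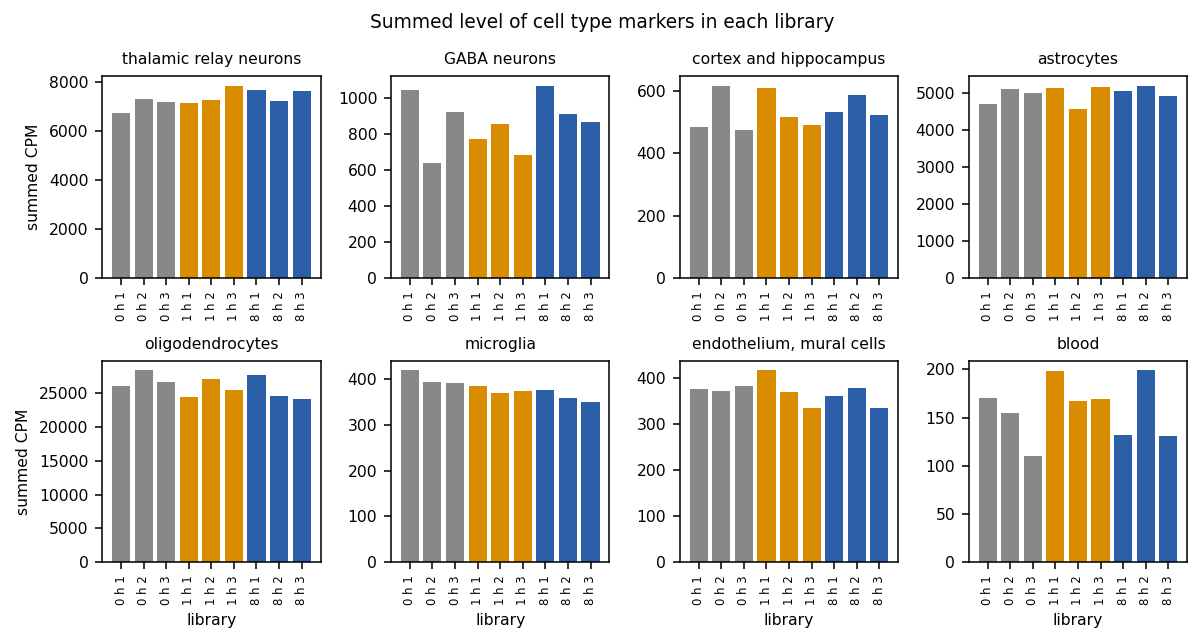
Summed level of the listed markers of 8 cell types among the joined genes, tested or not (vertical axis, CPM, from 0) in each library (horizontal axis, hours of light and replicate), with grey bars for 0 h, orange for 1 h and blue for 8 h. The sum of the GABA neuron markers is 686 to 854 CPM at 1 h and 870 to 1070 CPM at 8 h, while the bars of the other types overlap between the times.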

How the data were processed

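Per the labels' protocols, ribosomal RNA was removed from total RNA before sequencing on a NextSeq 500 instrument. The submitters' processing notes name BWA, edgeR 3.14.0 and build GRCm38 (mm10) but no order of steps. Not given in the sources used here are the counting program, its annotation and its strand option, so overlapping genes on opposite strands cannot be separated. The deposited values used are raw counts per gene and library, in 4 tables. The deposited density, a signal of counts over exonic length, was only checked against the counts (within 5%). There were 20011 genes in the tables for 1 h and 20399 in those for 8 h, with 25 symbols stored as dates restored by Entrez gene number.

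Counts were tested with edgeR 4.0.16 (glmQLFit and glmQLFTest, package defaults, TMM scaling, filterByExpr) in R 4.3.3 on 9 libraries, as the contrast of 8 h minus 1 h, two-sided, with Benjamini-Hochberg adjustment over all 15586 genes and a threshold of 0.05. Standard errors were taken from each fold change and its F statistic, and SD is over n = 3 libraries. The floor of detection is 3 counts, which covers counting error only. The p-values measure the spread between these libraries.

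Genes were named by rule: the 15 largest changes in each direction among called genes, up to 6 called members of each of 30 lists (otherwise the 3 of smallest p), and a set of activity, Fn14 and library check genes. A few list members are not reported here. Members and lists were chosen with earlier results of these data known. Alternatives were DESeq2 1.42.0, limma-voom (limma 3.58.1), RLE or no scaling, the 6 libraries alone, other count filters, the legacy option of glmQLFit, a replicate block, covariates for Xist and GABA neurons, and leaving out each library. The statistics were tested on simulated data. Promoters come from RefSeq (GRCm38.p6), and exon overlaps from GENCODE M21.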

Additional observations from a re-analysis of the deposited data

Results flagged for a closer look

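Crx, a homeobox factor of photoreceptors and pineal cells that lies outside the 19703 joined genes, had 64 counts in 8 h replicate 1, 0 in 8 h replicates 2 and 3, and 1, 0 and 0 in the libraries of darkness. It was singled out because this signal lies in a gene that the contrast does not use, above the level of the libraries kept in darkness and above the floor of 3 counts. It rests on 1 library, and its source was not tested.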

How the results depend on the processing

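Against 79 higher and 15 lower genes, DESeq2 called 143 and 56, a minimum of 10 counts in every library called 86 and 23, Xist as a covariate 63 and 9, the GABA neuron covariate 40 and 9, and the fit without 0 h replicate 2 and 1 h replicate 1 together 24 and 4; the cause was not tested. Leaving out 1 library at a time gave 16 to 104 higher and 4 to 26 lower genes. The counts stayed within 1.5 times under limma-voom, RLE scaling, no scaling, the 6 libraries alone, no filter and both settings of the legacy option, one of which is the default used. Correlations of same-numbered deviations were 0.08, -0.17 and 0.21 over 11413 genes, and those of differently numbered libraries ran from -0.28 to 0.17. Deviations from the mean cancel within a group, so this check cannot decide whether the replicate numbers pair the samples. A fit with the replicate as a block called 62 and 13 genes.

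For the 108 genes named by rule and reported, 2104 of 2347 values kept their direction and side of the threshold, 212 lost and 11 gained a call, and 20 in 9 genes changed sign, none in a called gene. Of the values kept, 108 came from the legacy setting that is the default used. A gene outside the threshold kept its side by staying uncalled, so the 212 losses could arise only in called genes. With single libraries left out, the log2 fold change ran from -3.47 to 2.37 for Neurod6, -1.05 to 0.19 for Ddx3y, -0.29 to 0.67 for Xist, -0.59 to 0.029 for Egr1, -0.51 to 0.15 for Chrna3, -0.41 to 0.23 for Gng8, -0.28 to 0.18 for Arc and -0.21 to 0.017 for Tnfsf12. Without 0 h replicate 2 and 1 h replicate 1 together it was 2.35 for Neurod6, 0.18 for Arc and 0.00942 for Gng8. Under limma-voom it was 0.22 for Neurod6, 0.049 for Gng8 and 0.010 for Arc. With the GABA neuron covariate it was -0.15 for Gad2 and 0.0014 for Chrna3, and with the Xist covariate -0.0061 for Xist. The cause was not tested. Depth limits genes near the floor, which lies highest in 0 h replicate 1 (0.524 CPM) and, of the 1 h and 8 h libraries, in 1 h replicate 1 (0.342 CPM).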
